A study of Mus musculus with 4 samples.

Results

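Transcription factors that mark the lateral ganglionic eminence and the striatum were followed through single cells of the BNST, or bed nucleus of the stria terminalis. The 9 genes, Meis1, Meis2, Pbx3, Foxp1, Foxp2, Six3, Tshz1, Ebf1 and Bcl11b, were taken as a named list, and all 9 were among the 20136 genes of the count tables. No member was used to define a cell class or subtype. The cells came from BNST tissue punches of male wildtype C57BL/6J mice, 6 mice pooled in each of 4 Drop-seq libraries, labelled batches 1 to 4. Age was not given in the sources used here, and no treatment or control group was compared. A library is therefore a pool and a batch at once, and n counts libraries.

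The lateral ganglionic eminence is the embryonic ridge that gives rise to the projection neurons of the striatum and to other GABAergic neurons of the forebrain. The neighbouring medial and caudal eminences give rise to other GABAergic neurons, among them many cortical interneurons. The listed proteins act in different ways. Meis1, Meis2 and Pbx3 are homeodomain proteins of the TALE class, which bind DNA as partners of one another and of other factors. Foxp1 and Foxp2 are forkhead repressors, Six3 is a sine oculis-type homeobox factor, and Ebf1 is a helix-loop-helix factor of striatonigral neurons. Tshz1 and Bcl11b, the latter also called Ctip2, are zinc finger proteins, and Bcl11b is required for differentiation of striatal projection neurons.

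Promoter sequences show what lies at the start of these genes. RefSeq on GRCm38.p6 held an entry for 6 of the 9 genes, with 9 windows of 300 bases in all, from 250 bases before to 50 after the start. Those of Meis2, Six3 and the second Foxp1 start are shown, 5′ to 3′ along the gene's own strand. They were picked because cells with Meis2 also held more Six3 and Foxp1 and because the last pair carry the MEIS core TGACAG, here in capitals, read on either strand.
Meis2, chr2:116064570-116064869, minus strand: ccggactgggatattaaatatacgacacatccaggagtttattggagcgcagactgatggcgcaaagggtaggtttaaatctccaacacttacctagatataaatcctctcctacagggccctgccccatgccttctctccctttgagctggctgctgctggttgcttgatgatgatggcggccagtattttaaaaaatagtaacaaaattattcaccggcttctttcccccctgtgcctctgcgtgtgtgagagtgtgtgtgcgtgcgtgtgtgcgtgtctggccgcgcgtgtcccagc
Six3, chr17:85620584-85620883, plus strand: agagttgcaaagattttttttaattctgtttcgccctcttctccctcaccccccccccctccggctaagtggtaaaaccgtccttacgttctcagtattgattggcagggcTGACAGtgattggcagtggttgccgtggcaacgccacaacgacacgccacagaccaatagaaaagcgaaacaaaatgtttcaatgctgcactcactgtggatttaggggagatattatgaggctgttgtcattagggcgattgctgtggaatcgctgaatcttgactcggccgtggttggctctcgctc
Foxp1, chr6:99266466-99266765, minus strand: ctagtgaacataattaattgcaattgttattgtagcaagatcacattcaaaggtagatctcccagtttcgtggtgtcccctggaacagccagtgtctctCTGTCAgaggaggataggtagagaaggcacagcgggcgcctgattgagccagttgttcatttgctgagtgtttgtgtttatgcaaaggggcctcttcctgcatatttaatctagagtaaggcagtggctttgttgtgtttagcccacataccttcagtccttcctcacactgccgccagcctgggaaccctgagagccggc
The letters of this core were present in 19.2% of all 32851 promoter windows of the same length, and in 2 of the 9 windows here, which is a description of these letters and not of a bound site. The forkhead core TGTTTAC, found in 3.65% of all windows, was in none of the 9. Both strands were searched for each motif, and neither contains the other. Pbx3, Foxp2 and Tshz1 had no sequence printed. Drop-seq reads the 3' ends of transcripts, so the counts below do not say which start was used.

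All 9 genes were located in GENCODE vM21 on GRCm38, the build the submitters' processing notes name. Meis1 lies on chr11:18879817-19018985, Meis2 on chr2:115863064-116065839, Pbx3 on chr2:34171457-34373142, Foxp1 on chr6:98925338-99522721 and Bcl11b on chr12:107910403-108003602, each on the minus strand. Foxp2 on chr6:14901349-15441977, Six3 on chr17:85613608-85629302 and Ebf1 on chr11:44617317-45008091 are on the plus strand. Six3 overlaps the antisense gene Six3os1, which had 145 UMIs (unique molecular identifiers, 1 per captured transcript) in GABAergic cells. The counting strand was not given in the sources used here, so Six3 values are uncertain to that extent. Other listed genes that overlap a member had between 0 and 4 UMIs in the same cells.

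After filtering, 4181 cells remained, with 837 to 1281 per library and a median of 1849 UMIs per cell. Cells were gated by UMIs of marker genes, none of them a member, into 2138 GABAergic cells (Gad1, Gad2, Slc32a1), 73 glutamatergic cells (Slc17a6, Slc17a7), 912 oligodendrocytes, 384 astrocytes and 143 oligodendrocyte precursors. Endothelial (38), mural (24) and microglial cells (9) were too few to test. Summed markers of each tested class came to at least 916 CPM (the UMIs of a gene relative to all UMIs of the class, on the usual CPM scale) in every library of that class, and the markers of the glutamatergic class to at most 2.10 CPM in GABAergic cells. GABAergic markers reached 192 CPM in oligodendrocyte precursors. Libraries had between 2640399 and 5652342 UMIs. Of the barcode sequences, 11 occurred in more than 1 library, and 0 of them among the cells kept.

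Members in GABAergic neurons were higher than in the other cells for most pairs tested. UMIs were added up over the cells of a class in each library, and edgeR's quasi-likelihood test was run with library as a block and Benjamini-Hochberg adjustment over all genes. Of 28 pairs of a member and a class, 20 passed an adjusted p of 0.05, of which 19 were higher in GABAergic cells. Over all genes the share called was 2.99% against glutamatergic cells, 69.4% against oligodendrocytes, 60.7% against astrocytes and 45.4% against oligodendrocyte precursors. Members called were 4 of 7, 7 of 7, 4 of 7 and 5 of 7 in that order, a share near the background against astrocytes. Without library 1, fewer members passed the low-count filter, and 10 of 16 pairs passed the test. The p-values rest on a spread between libraries of pooled mice that edgeR shares over genes. They do not measure each member's own spread alone. Fewer transcripts per cell cannot be told apart from fewer expressing cells in such sums. Meis1 and Pbx3 fell below the low-count filter of this fit and are given from the fit without it. The median gene was itself shifted by 0.23, 0.16, 0.28 and 0.17 on the log2 scale in the same order, and by 0.01, 0.12, -0.05 and -0.17 with DESeq2 size factors in edgeR. Fold changes below carry that shift. The share of all calls that were higher in GABAergic cells moved with it, from 71.4% to 42.5% against glutamatergic cells, from 57.3% to 45.4% against astrocytes and from 57.4% to 42.4% against precursors.

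Meis2 was high in GABAergic neurons. Its level in GABAergic cells was 353, 483, 456 and 488 CPM in libraries 1 to 4, against 22.4, 21.5, 22.8 and 24.2 CPM in oligodendrocytes. Every GABAergic value was above every oligodendrocyte value. GABAergic cells were higher by 3.83 on the log2 scale (SE 0.21, adjusted p = 1.29e-73, higher in 4 of 4 libraries). Against glutamatergic cells, with sums in 3 libraries, Meis2 was higher by 2.82 on the log2 scale (SE 0.28, adjusted p = 8.39e-22). The 23 Meis2 UMIs of the glutamatergic class came from 4 of its 73 cells. Meis2 was also higher than in oligodendrocyte precursors, by 3.14 (SE 0.35, adjusted p = 2.34e-18).

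Pbx3 in the GABAergic sums was at 58.7, 63.8, 59.6 and 64.1 CPM. Its level was 61.6 ± 2.81 CPM (SD, n = 4), the smallest spread relative to the mean among the 9 genes. These sums held 528 Pbx3 UMIs. The counting error of each library is larger than that SD, so the SD does not measure how steady Pbx3 was. In oligodendrocytes it was 13.1, 24.5, 30.4 and 10.4 CPM, below the GABAergic value in each library. Without the low-count filter, Pbx3 was higher in GABAergic cells than in oligodendrocytes by 1.34 (adjusted p = 7.73e-06), and than in glutamatergic cells by 2.13 (adjusted p = 0.0181). Astrocytes and precursors held 2 Pbx3 UMIs each. The pooled GABAergic level was 10.8 times the astrocyte level (counting interval 2.99 to 89.8, adjusted p = 8.50e-07) and 4.98 times the precursor level (1.37 to 41.3, adjusted p = 0.000951). That fit called 39.4%, 31% and 19.7% of all genes for the 3 glial classes and 0.971% for the glutamatergic one.

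Meis1 had the opposite distribution with respect to oligodendrocytes and astrocytes. In GABAergic cells it was 5.70, 4.91, 7.90 and 9.46 CPM, with 58 UMIs in 47 of 2138 cells. Oligodendrocytes gave 31.7, 18.4, 30.4 and 38.0 CPM, and astrocytes 54.2, 40.1, 40.2 and 86.0 CPM. All glial values of these classes lay above all GABAergic values. Without the low-count filter Meis1 was lower in GABAergic cells than in oligodendrocytes (log2 fold change -2.41, adjusted p = 1.81e-11) and astrocytes (-2.76, adjusted p = 1.51e-07), in 4 of 4 libraries each. The glial values rest on 46 UMIs in oligodendrocytes and 19 in astrocytes. Against precursors, with 3 Meis1 UMIs, no call was made (-0.80, adjusted p = 0.789). Neither was one made against glutamatergic cells, with 1 UMI, where the difference of 1.24 had the other sign.

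Of the forkhead genes, Foxp2 was higher in GABAergic cells than in each of the other 4 tested classes. It measured 55.9, 45.8, 113 and 75.7 CPM there, with libraries 3 and 4 above libraries 1 and 2. No Foxp2 UMI was found in the 73 glutamatergic cells, which allows up to 7.55 CPM, so the pooled GABAergic level of 67.4 CPM was at least 8.93-fold higher. Counting error alone is covered by that limit. Oligodendrocytes held 2 Foxp2 UMIs in 912 cells and astrocytes 2 in 384, so that the pooled GABAergic level was 52.1 times (counting interval 14.4 to 431, adjusted p = 1.40e-21) and 12.0 times theirs (3.29 to 98.9, adjusted p = 1.89e-06). Precursors held 3 UMIs, and the ratio was 3.66 (1.25 to 17.8, adjusted p = 0.00296), a call lost with DESeq2 (adjusted p = 0.0616).

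Foxp1 was found in every tested class. GABAergic cells gave 64.7, 53.5, 119.9 and 119 CPM, oligodendrocytes 46.6, 18.4, 63.3 and 55.3 CPM, and astrocytes 27.1, 134, 191 and 115 CPM. The astrocyte libraries spanned the whole GABAergic range, so the groups overlapped. Against oligodendrocytes the GABAergic level was higher by 0.48 (SE 0.22, adjusted p = 0.0415, 4 of 4 libraries), a call lost without library 1 (adjusted p = 0.0512), library 2 (adjusted p = 0.118) or library 4 (adjusted p = 0.165). Against precursors it was higher by 1.17 (SE 0.49, adjusted p = 0.0395), lost without library 1, 3 or 4 (adjusted p = 0.208, 0.12 and 0.133). DESeq2 made neither call (adjusted p = 0.169 and 0.232). Against astrocytes (-0.49, adjusted p = 0.123) and glutamatergic cells (1.10, adjusted p = 0.141) no call was made, although with DESeq2 size factors the astrocyte difference passed (-0.81, adjusted p = 0.00860).

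Bcl11b separated GABAergic cells from glia in every library. The GABAergic level was 144, 183, 238 and 259.7 CPM, and no astrocyte, oligodendrocyte or precursor sum exceeded 21.3 CPM. The log2 fold change against oligodendrocytes was 4.96 (SE 0.32, adjusted p = 6.72e-52). Astrocytes and precursors held 1 Bcl11b UMI each. The pooled GABAergic level was 68.4 times that of astrocytes (counting interval 12.3 to 2704, adjusted p = 1.06e-20) and 31.4 times that of precursors (5.64 to 1243, adjusted p = 3.36e-13). Glutamatergic cells gave 27.7, 62.8 and 25.7 CPM in the 3 libraries tested, again below GABAergic cells (2.47, SE 0.36, adjusted p = 1.66e-09). GABAergic libraries 3 and 4 were above libraries 1 and 2 for Bcl11b as for Foxp1 and Foxp2, and the part of the batch in this was not tested.

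Six3 was higher in GABAergic than in glutamatergic neurons and oligodendrocytes. The 3 glutamatergic sums tested held 1 Six3 UMI, a ratio of 30.8 (counting interval 5.51 to 1218, adjusted p = 3.54e-08), and the 7 glutamatergic cells of library 3, too few to enter, held Six3 at 48.1 CPM. Against oligodendrocytes Six3 was 4.24 higher on the log2 scale (SE 0.42, adjusted p = 1.12e-23). Its GABAergic values were 71.0, 71.5, 86.1 and 129.8 CPM, against 0, 0, 7.60 and 6.91 CPM in oligodendrocytes. Astrocytes stood apart from the other glia, at 72.3, 66.9, 80.4 and 129 CPM. These values were at 97.0 ± 4.21% of the GABAergic ones of the same library (SD, n = 4), and edgeR gave a difference of -0.09 (SE 0.31, adjusted p = 0.807). The astrocyte level came from 30 UMIs in 24 of 384 cells. The counting error of each library is larger than that SD, so the SD does not measure how closely the 2 levels agree. Precursors were in between, at 43.6, 32.7, 21.3 and 75.6 CPM (1.35 lower than GABAergic cells, SE 0.52, adjusted p = 0.0223), a call lost without library 1, 2 or 3 (adjusted p = 0.0822, 0.0514 and 0.111) and with DESeq2 (adjusted p = 0.155).

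Tshz1 was the single member called lower in GABAergic cells among those that passed the low-count filter. Oligodendrocytes gave 48.5, 42.9, 58.3 and 45.0 CPM, GABAergic cells 31.4, 27.8, 51.0 and 43.1 CPM. Each oligodendrocyte value exceeded the GABAergic value of its own library, although the ranges overlapped, and GABAergic cells differed by -0.81 on the log2 scale (SE 0.24, adjusted p = 0.00163). Relative to the median gene it was -0.97. Precursors gave 87.3, 32.7, 171 and 75.6 CPM and the test was not passed (-1.04, adjusted p = 0.0513), nor was it against astrocytes (-0.55, adjusted p = 0.251) or glutamatergic cells (-0.56, adjusted p = 0.613). With DESeq2 size factors the precursor difference passed (-1.38, adjusted p = 0.0112).

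Ebf1 was low in GABAergic cells as a whole, at 27.1, 17.5, 16.5 and 29.4 CPM. No Ebf1 UMI was found in 384 astrocytes, so the pooled GABAergic level of 23.9 CPM was at least 2.82-fold higher, and oligodendrocytes held 2 UMIs (ratio 18.4, counting interval 5.04 to 153, adjusted p = 9.99e-07). Precursors gave 87.3, 32.7, 85.3 and 50.4 CPM, above the GABAergic value in 4 of 4 libraries. That rested on 11 UMIs, and the difference of -1.25 did not pass (SE 0.58, adjusted p = 0.0659), though it did with DESeq2 size factors (-1.61, adjusted p = 0.0203).

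**Figure D1:**
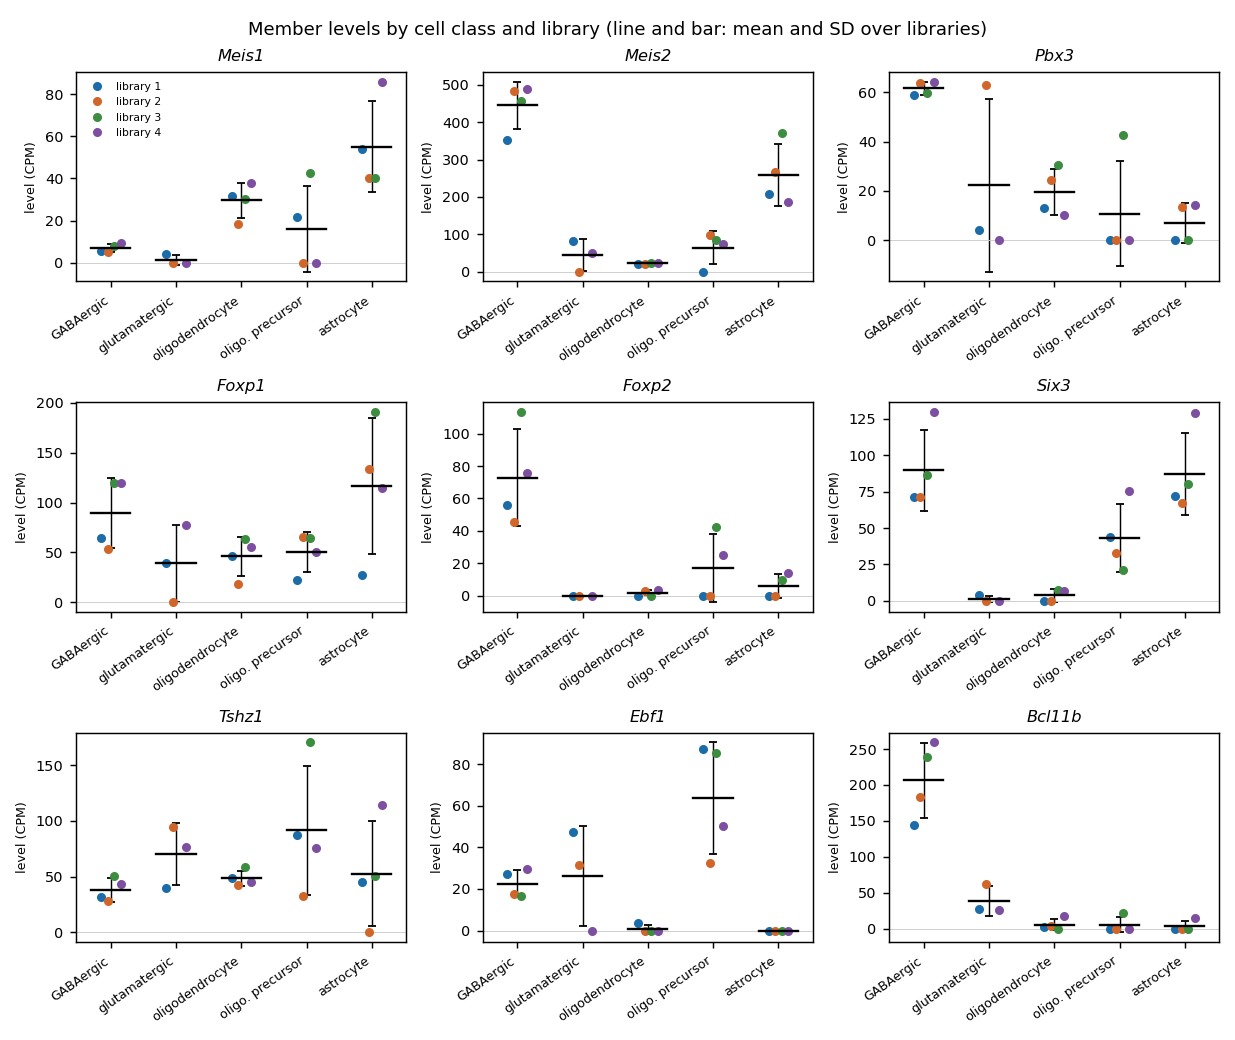
Level of each member in CPM (vertical axes, linear, 1 panel per gene) by cell class, with 1 point per library of at least 10 cells, and the mean and SD over libraries as line and bar. Bcl11b and Foxp2 have their highest means in GABAergic cells, Meis1 is lower there than in astrocytes, and Six3 reaches 129 CPM in astrocytes against 129.8 CPM in GABAergic cells.

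The glial values were set against 5 general neuronal genes, Snap25, Syt1, Stmn2, Nefl and Rab3a, taken as genes that glia should lack. In astrocytes these 5 were at 0 to 6.58% of their GABAergic level in any library. Meis2 stood at 58.9, 55.4, 81.5 and 38.2% of its GABAergic level in the same cells, Six3 at 93.4 to 102%, and Meis1 at 509 to 951%. These 3 genes lay above all 5 neuronal genes in each library. Foxp1 (41.9 to 250.3%) was also above them in every library, whereas Bcl11b (0 to 5.52%) and Ebf1 (0%) were not. Foxp2 (0 to 18.9%), Pbx3 (0 to 22.4%) and Tshz1 (0 to 266%) each had a library at 0.

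Meis2 was nonetheless higher in GABAergic cells than in astrocytes, by 0.62 (SE 0.18, adjusted p = 0.00193, 4 of 4 libraries). Astrocytes gave 208, 268, 372 and 186 CPM from 93 UMIs in 74 cells, below the GABAergic value of each library. The call was lost without library 1 (0.40, adjusted p = 0.0753) and with DESeq2 size factors (0.29, adjusted p = 0.167). Astrocytes were shallow, with a median of 824 UMIs against 3428 in GABAergic cells, so shares of cells were compared at 1000 UMIs. Most astrocytes were too shallow for this. Those that reached it were 47 of 111, 24 of 82, 37 of 104 and 6 of 87 in libraries 1 to 4, against 612 of 667, 426 of 466, 322 of 365 and 580 of 640 GABAergic cells. Among these deeper cells Meis2 was seen in 21.1 ± 5.23% of astrocytes and 31.0 ± 3.05% of GABAergic cells (SD, n = 4). Over all cells, unthinned, the shares were 19.1% and 46.3%.

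In oligodendrocytes the 5 neuronal genes were at 0.504 to 11.9% of their GABAergic level, Rab3a being the highest. Tshz1 (104 to 155%) and Meis1 (375 to 556%) lay above the GABAergic level itself, and Foxp1 at 34.4 to 72.0% and Pbx3 at 16.2 to 51.0% lay above the neuronal genes in each library. Meis2, at 4.44 to 6.34%, lay below Rab3a (10.3 to 11.9%) in each library. It lay above Snap25, Syt1, Stmn2 and Nefl in each library, the highest of which was 2.86% for Nefl. In 3436 barcodes of under 200 UMIs, too shallow to pass as cells, all 9 members were found, Meis2 at 272 CPM and Bcl11b at 124 CPM. The part of free RNA in the glial values was not tested beyond this.

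**Figure D2:**
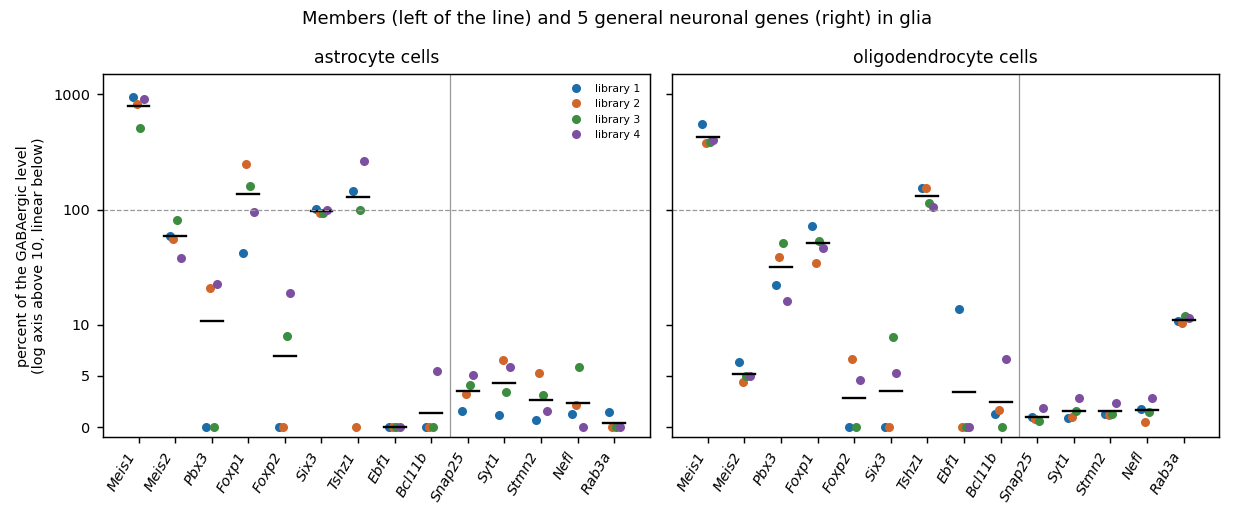
Level in astrocytes (left) and oligodendrocytes (right) as a percentage of the GABAergic level of the same library, for the 9 members and 5 neuronal genes; the axis is logarithmic above 10 and linear below, points are libraries and lines are means over 4 libraries. In astrocytes Meis1, Meis2, Foxp1 and Six3 lie above the neuronal genes in all 4 libraries, while Ebf1 is at 0.

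Vascular cells, too few to test, held high levels of 2 members. Endothelial cells had 31 Foxp1 UMIs in 23 of 38 cells, or 802 CPM (exact Poisson interval at 95%, 545 to 1139, which covers counting error only). Mural cells had 12 Ebf1 UMIs in 10 of 24 cells, or 538 CPM (278 to 939.9). The same mural cells had no UMI of Meis1, Meis2, Pbx3, Foxp2, Six3, Tshz1 or Bcl11b, which allows up to 135 CPM each.

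Within the GABAergic class, subtypes were gated by 1 or 2 marker genes each and named after them. Cells passing exactly 1 gate numbered 204 for Sst/Npy, 169 for Ppp1r1b/Crym, 121 for Cck/Greb1, 105 for Crh/Wif1, 96 for Zic1/Zic4, 78 for Slc17a8 and 71 for Tac2. The Prkcd (31 cells) and Lhx8 gates (25 cells) had 10 cells in 1 library only and were not tested, and 998 GABAergic cells passed no gate. Each subtype was compared with the mean of the other tested subtypes, taken on the log2 scale with equal weight per gate. Gates at a low level pull such a mean down, so fold changes can differ from ratios of mean CPM. Bcl11b in the Slc17a8 gate, for instance, was 1.01 higher on the log2 scale. Its mean there was 207 CPM, against 187 CPM over the other tested gates. Of 56 pairs of a member and a subtype, 21 passed (14 higher, 7 lower), or 37.5%, against 7.46% of all genes over the 7 comparisons.

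The Ppp1r1b/Crym gate, named for DARPP-32, the dopamine-signalling phosphoprotein of striatal projection neurons, held the most members per cell among the gates. There 7 of the 8 members tested were higher, where 14% of all genes were called higher. Cells of this gate contained 2.43 ± 0.435 of the 9 members at a depth of 1500 UMIs (SD, n = 4 libraries), and GABAergic cells as a whole 1.09 ± 0.155. It made up 5.79 to 9.32% of GABAergic cells per library.

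Foxp1 had the largest fold change of the 8 members tested in this gate. It measured 412, 269, 744 and 735 CPM, with libraries 3 and 4 the highest, and at most 108 CPM in any other tested sum. The groups did not overlap, and Foxp1 was 3.49 higher on the log2 scale (SE 0.17, adjusted p = 2.33e-28). Bcl11b measured 595, 519, 698 and 796 CPM, against at most 310.0 CPM in another tested sum (2.99, SE 0.15, adjusted p = 6.69e-28). Foxp1 UMIs were seen in 103 of the 169 cells and Bcl11b UMIs in 142.

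Meis2 and Six3 were high here and in 1 further gate each. Meis2 was 862, 997, 1232 and 1079 CPM (2.22, SE 0.15, adjusted p = 2.69e-20), a range that overlapped that of the Slc17a8 gate. Six3 was 165, 149.6, 221 and 330.5 CPM (2.57, SE 0.26, adjusted p = 3.89e-13), a range that overlapped that of the Zic1/Zic4 gate. The other members called were Foxp2 at 82.3, 89.7, 165 and 182 CPM (1.99, SE 0.34, adjusted p = 2.40e-06) and Tshz1 at 48.4, 49.9, 64.3 and 115 CPM (1.74, SE 0.41, adjusted p = 0.000597). Ebf1 at 29.1, 19.9, 27.6 and 54.0 CPM was called too (1.70, SE 0.60, adjusted p = 0.0262). The Ebf1 call rested on 19 UMIs and was lost without library 1 (adjusted p = 0.0710), library 3 (adjusted p = 0.0580) or library 4 (adjusted p = 0.121), and with DESeq2 (adjusted p = 0.267).

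Pbx3 was the exception, at 33.9, 19.9, 46.0 and 47.2 CPM (-0.14, SE 0.49, adjusted p = 0.894). Meis1, below the filter, had 4 UMIs in this gate. Of the striatal projection neuron genes that did not define the gate, 14 of 15 tested were higher, with a median log2 fold change of 2.62 against -0.01 over all genes. Among them were Scn4b, a sodium channel subunit (5.26), and Arpp21, a phosphoprotein (4.35). Of the other ganglionic eminence and striatal factors, 8 of 12 were higher, led by the retinoic acid receptor gene Rarb (4.26), and Dlx1 was the 1 that was lower, at a mean of 2.90 CPM against 165 CPM over the other tested gates.

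The Slc17a8 gate, named for the vesicular glutamate transporter VGLUT3, held a different set. Pbx3 was highest here, at 146, 182, 232 and 244 CPM, above every value of the other tested gates, whose highest was 108 CPM. Pbx3 was 2.65 higher on the log2 scale (SE 0.31, adjusted p = 6.98e-10). Meis2, its TALE partner, was 1044, 798, 841 and 866 CPM (1.92, SE 0.17, adjusted p = 6.10e-14). Foxp1 in the same cells was 33.7, 45.6, 33.2 and 77.7 CPM (-0.62, adjusted p = 0.396). Members called higher were 4 of 8, where 3.08% of all genes were.

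The other 2 calls of the Slc17a8 gate were less firm. Foxp2 was 146, 57.0, 44.3 and 111 CPM (1.37, SE 0.42, adjusted p = 0.0362), a call lost without library 1, 2 or 4 (adjusted p = 0.471, 0.0752 and 0.127), with DESeq2 (adjusted p = 0.0622) and with gates at 1 or 3 UMIs (adjusted p = 0.610 and 0.604). Bcl11b was 157, 159.5, 310.0 and 199.9 CPM (1.01, SE 0.22, adjusted p = 0.00113), a call lost without library 3 (adjusted p = 0.101) and with cells thinned to 1000 UMIs (adjusted p = 0.521). Against the summed cells of the other subtypes, a comparison added after the data were seen, the Bcl11b difference was 0.07 (adjusted p = 0.926). Meis1 was 11.2, 22.8, 11.1 and 44.4 CPM, its highest mean among the tested gates, from 8 UMIs.

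The Cck/Greb1 gate was the low end for most members. At 1500 UMIs its cells contained 0.237 ± 0.0505 members. Bcl11b was 13.1, 17.7, 8.41 and 0 CPM, below every value of the other tested gates (-3.79, SE 0.34, adjusted p = 1.59e-14). Meis2 was 68.5, 133, 4.21 and 67.3 CPM (-2.58, SE 0.27, adjusted p = 6.17e-12), with 43 UMIs in 11 of 121 cells. Pbx3, with 5 UMIs, was lower by 2.81 (adjusted p = 0.000102), a call lost with cells thinned to 1000 UMIs (-1.43, adjusted p = 0.615). Six3, with 10 UMIs, was lower by 1.98 (adjusted p = 0.00198), lost without library 3 (adjusted p = 0.0598) and with a gate at 1 UMI (adjusted p = 0.185).

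Of the 8 members tested 5 were lower in the Cck/Greb1 gate, where 2.46% of all genes were lower. The fifth was Foxp2 (-1.93, SE 0.60, adjusted p = 0.0292, lower in 3 of 4 libraries), lost without library 1, 3 or 4 (adjusted p = 0.372, 0.11 and 0.0905) and with DESeq2 (adjusted p = 0.0644). Medial ganglionic eminence factors went the other way in this gate. Sox6 (3.78), Lhx6 (2.97) and Satb1 (2.90) were higher, 3 of 4 tested, where 4.82% of all genes were higher. This was not particular to the Cck/Greb1 gate. In the Sst/Npy gate 4 of 4 medial factors were higher, where 2.57% of all genes were, and no member was called lower. The median over the medial list was 3.56 there and 2.93 in the Cck/Greb1 gate. Of the caudal eminence genes 3 of 6 were higher, among them Nr2f2 (2.68), also called COUP-TFII, and 1 was lower, the cannabinoid receptor gene Cnr1 (-1.65).

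The remaining gates differed in single members. In the Zic1/Zic4 gate Six3 was 111, 99.2, 196 and 295 CPM (2.17, SE 0.30, adjusted p = 4.97e-07), and Bcl11b was 46.2, 72.2, 26.1 and 61.0 CPM (-1.22, SE 0.31, adjusted p = 0.0102). Six3 and Bcl11b, both high in the Ppp1r1b/Crym gate, thus moved in opposite directions here. The Bcl11b call was lost without library 1 (adjusted p = 0.121) or library 3 (adjusted p = 0.0807) and with a gate at 1 UMI (adjusted p = 0.146). Members called were 1 of 8 higher and 1 of 8 lower, against 1.95% and 1.31% of all genes.

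In the Tac2 gate, of neurokinin B cells, Ebf1 was 107, 19.7 and 152 CPM in libraries 1, 2 and 4 and the difference was 3.39 (SE 0.59, adjusted p = 7.11e-05). The 32 Ebf1 UMIs came from 10 of 71 cells, and the call was lost without library 1 (adjusted p = 0.140). Ebf1 was the 1 of 8 members called, where 1.89% of all genes were higher. In the Sst/Npy gate, of somatostatin and neuropeptide Y cells, Bcl11b was 157, 172, 278 and 204 CPM (0.93, SE 0.18, adjusted p = 0.000232), the 1 of 8 called where 2.57% of all genes were higher. This call depended on the reference. Against the summed cells of the other subtypes Bcl11b differed by -0.01 (adjusted p = 1.00).

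In the Crh/Wif1 gate, of corticotropin-releasing hormone cells, Six3 was 27.1, 22.5, 8.09 and 12.9 CPM (-1.58, SE 0.48, adjusted p = 0.0445), the 1 of 8 called where 1.25% of all genes were lower. The call was lost without any 1 of the 4 libraries (adjusted p = 0.149, 0.0873, 0.133 and 0.176) and with DESeq2 (adjusted p = 0.179). Untested for want of cells, the Prkcd gate had 92 Meis2 UMIs in 26 of 31 cells (522 CPM, 421 to 640.1) and 52 Bcl11b UMIs (295 CPM, 220.3 to 387). Foxp2, Tshz1 and Ebf1 had no UMI in those Prkcd cells, which allows up to 17.0 CPM each. The 998 cells of no gate were above the Cck/Greb1 gate for Meis2 in every library (413, 579, 623 and 585 CPM).

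**Figure D3:**
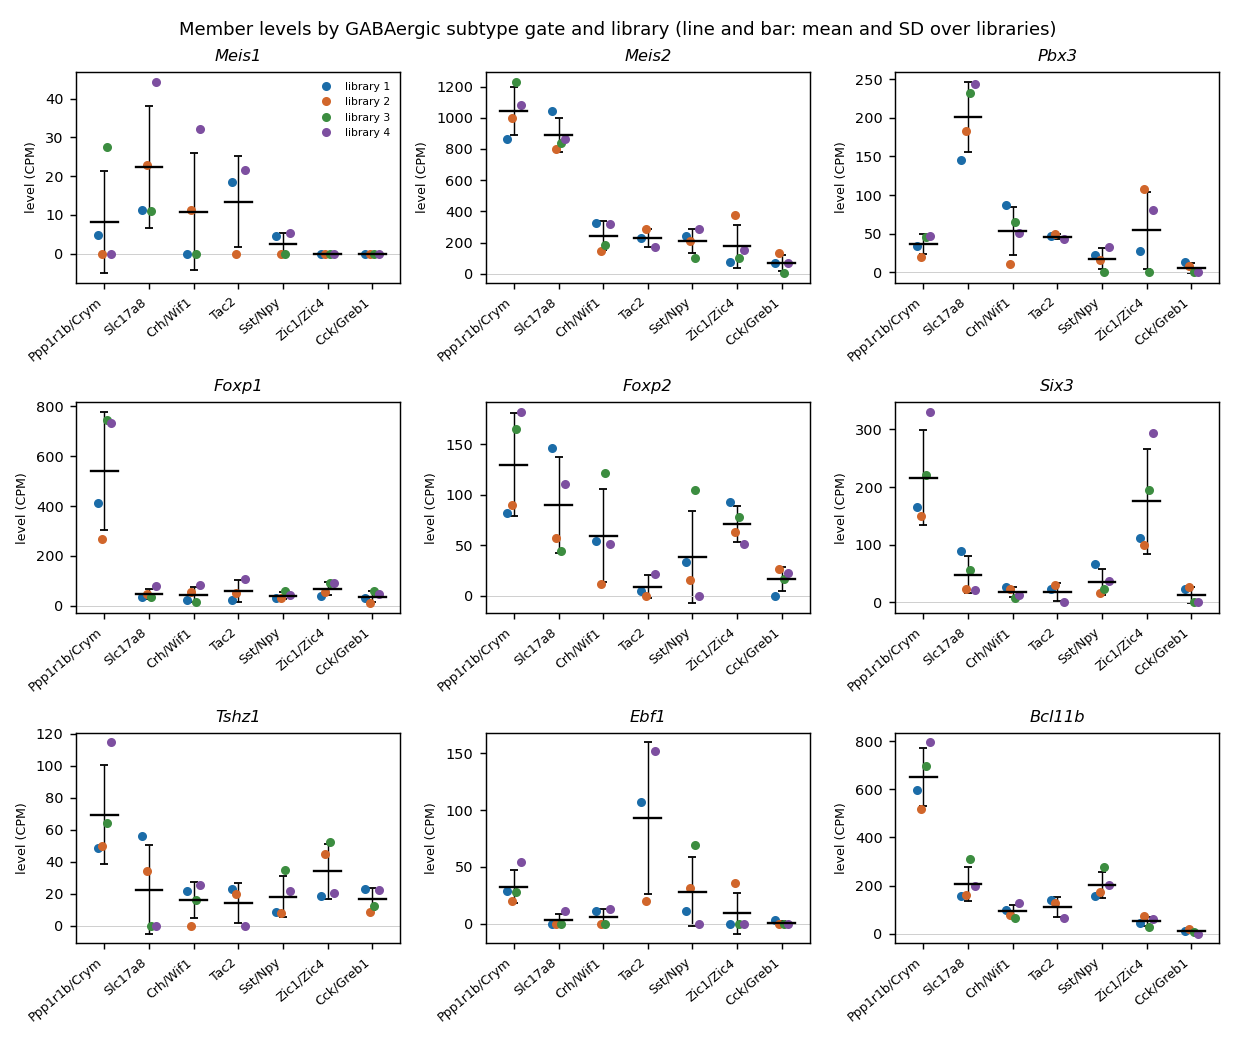
Level of each member in CPM (vertical axes, linear, 1 panel per gene) by GABAergic subtype gate, with 1 point per library of at least 10 cells, and the mean and SD over libraries as line and bar. Foxp1 and Bcl11b peak in the Ppp1r1b/Crym gate, Pbx3 in Slc17a8, Ebf1 in Tac2, and the Cck/Greb1 gate is low for Meis2 and Bcl11b.

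To see which members shared cells, GABAergic cells with at least 1 UMI of a member were paired, within a library, with the cell without it nearest in total UMIs. The other members were then compared between both sides. Meis1 reached 10 pairs in 2 libraries only, so 8 members were used to split the cells. Of 46 pairs of a splitting and a measured member, 26 passed (25 higher, 1 lower), or 56.5%, against 6.31% of all genes over the 8 comparisons. DESeq2 called 17 of these pairs and edgeR without the library block 14. A cell without a UMI may still express the gene, so both sides are diluted.

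Cells with Meis2 held more of each of the 7 other members tested. Between 153 and 292 pairs of cells per library entered, and 7 of 7 members were higher in the cells with Meis2, where 7.71% of all genes were. Bcl11b was 268, 280.2, 439 and 397 CPM in cells with Meis2 and 58.0, 69.0, 89.5 and 148 CPM in cells without (1.93, SE 0.11, adjusted p = 1.63e-18). The groups did not overlap. Six3 was 146, 94.2, 158 and 182 CPM with Meis2 and 26.0, 40.3, 30.4 and 92.4 CPM without, higher in each library (1.66, SE 0.16, adjusted p = 4.89e-11). The other differences were 1.38 for Tshz1, 1.24 for Pbx3, 1.23 for Foxp1, 1.14 for Ebf1 and 0.97 for Foxp2, each in 4 of 4 libraries. The Ebf1 call was lost without library 1 (adjusted p = 0.371) or library 3 (adjusted p = 0.0679), with DESeq2 (adjusted p = 0.590) and with all cells unpaired (0.32, adjusted p = 0.399). In the reverse splits Meis2 was not called beside Foxp1 (0.24, adjusted p = 0.284) or Ebf1 (0.35, adjusted p = 0.668).

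Genes of the other lists separated as well. With Meis2, 14 of 16 striatal projection neuron genes were higher, led by Ppp1r1b (3.71), whereas 5 of 6 medial eminence factors were lower, where 7.44% of all genes were, among them Lhx6 (-4.61) and Nkx2-1 (-4.50). The median over the medial list was -3.53, against 0.00 over all genes tested. Of the other ganglionic eminence and striatal factors 8 of 13 were higher, among them Zfp503, a zinc finger repressor of striatal neurons (2.00), and 3 were lower, among them Dlx1 (-2.20). Bcl11a, the family relative of Bcl11b, was higher (0.54).

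Cells with Foxp2 held more Tshz1 and Pbx3. With Foxp2, Tshz1 was 78.5, 143, 212 and 187 CPM, against 28.6, 5.52, 29.2 and 22.3 CPM in cells without, with no overlap (2.55, SE 0.29, adjusted p = 1.64e-15). Pbx3 was 119, 176, 149.6 and 160.2 CPM with Foxp2 and 28.6, 27.6, 87.7 and 40.1 CPM without, again with no overlap (1.72, SE 0.25, adjusted p = 2.85e-09). Meis2 was higher as well (1.00, SE 0.11, adjusted p = 5.82e-16). These were 3 of 6 members, where 1.12% of all genes were higher.

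Splits by the other 2 genes are not independent of this one, as they use overlapping cells. With Pbx3, Foxp2 was 105, 102, 276 and 176 CPM against 14.1, 12.4, 76.8 and 39.8 CPM (2.35, SE 0.23, adjusted p = 1.19e-10), higher in each library. Tshz1 (1.41, SE 0.29, adjusted p = 0.00185) and Meis2 (1.05, SE 0.11, adjusted p = 1.20e-09) were higher too, so that 3 of 6 members were, against 0.497% of all genes. With Tshz1, Foxp2 (1.67, SE 0.24, adjusted p = 6.66e-05), Pbx3 (1.67, SE 0.36, adjusted p = 0.0180) and Meis2 (0.85, SE 0.13, adjusted p = 0.000312) were higher, again 3 of 6 and against 0.289%. The Pbx3 call in this split was lost without library 2 (adjusted p = 0.160) or library 3 (adjusted p = 0.0709). It was also lost with DESeq2 (adjusted p = 0.802), with all cells unpaired (0.66, adjusted p = 0.303) and with cells thinned to 1500 UMIs (1.27, adjusted p = 0.176). The Meis2 call beside Tshz1 was lost with DESeq2 (adjusted p = 0.122).

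Foxp1 was the 1 member called lower beside another. It was 43.3, 24.8, 81.4 and 96.1 CPM in cells with Pbx3 and 83.0, 77.6, 139.99 and 119.5 CPM in cells without, lower in each library although the ranges overlapped (-0.83, SE 0.21, adjusted p = 0.0286). The share of all genes called lower there was 0.976%. The call was lost without library 1, 2 or 3 (adjusted p = 0.176, 0.204 and 0.0789), with DESeq2 (adjusted p = 0.991) and when pairs were taken within 1 subtype gate (-0.29, adjusted p = 0.946). Ppp1r1b itself was lower beside Pbx3 (-1.06), and the calretinin gene Calb2 was higher (1.26).

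Cells with Bcl11b held more Ebf1 and Foxp1. With Bcl11b, 4 of 7 members were higher, where 6.51% of all genes were. Ebf1 was 56.4, 32.0, 30.9 and 35.8 CPM with Bcl11b and 8.81, 10.3, 11.2 and 11.1 CPM without (2.03, SE 0.27, adjusted p = 1.76e-08). Foxp1 was 111, 77.0, 204 and 165 CPM with it and 40.8, 42.7, 37.3 and 93.0 CPM without (1.33, SE 0.15, adjusted p = 8.48e-11). The Ebf1 groups did not overlap, and those of Foxp1 overlapped but differed the same way in each library. Meis2 was higher by 1.40 (SE 0.08, adjusted p = 1.40e-24).

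Six3 passed narrowly beside Bcl11b (0.43, adjusted p = 0.0465), was higher in 2 of 4 libraries and lost its call without library 1, 3 or 4 (adjusted p = 0.449, 0.507 and 0.0508) and with DESeq2 (adjusted p = 0.942). Foxp2 (0.14), Tshz1 (0.14) and Pbx3 (0.12) did not pass in that split, with adjusted p of 0.629, 0.751 and 0.724. Meis1, tested without the low-count filter, was higher beside Bcl11b in 3 of 4 libraries (2.06, SE 0.54, adjusted p = 0.00367), where 3.26% of all genes were. That rested on 36 Meis1 UMIs with Bcl11b and 8 without, and Meis1 was not called in any other split. In the reverse splits, Bcl11b was higher beside Ebf1 in the 3 libraries with enough pairs (1.75, SE 0.27, adjusted p = 2.95e-05, 1 of 2 members tested against 1.59% of all genes). Beside Foxp1 it was higher by 0.66 (SE 0.10, adjusted p = 0.000196), the 1 of 6 members called against 1.19% of all genes.

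Cells with Six3 held more Tshz1 (1.44, SE 0.30, adjusted p = 0.00272), Foxp1 (0.85, SE 0.17, adjusted p = 0.00230) and Meis2 (0.83, SE 0.11, adjusted p = 7.11e-06), 3 of 6 members against 1.8% of all genes. Tshz1 was 32.3, 58.5, 139 and 89.4 CPM in cells with Six3 and 29.8, 8.36, 45.0 and 16.1 CPM without, so that library 1 barely differed. Without library 4 the adjusted p was 0.0521. With DESeq2 none of the 3 calls was made (adjusted p = 0.0655 for Tshz1, 0.0827 for Foxp1 and 0.153 for Meis2). In the reverse splits Six3 was not called beside Foxp1 (0.28, adjusted p = 0.604) or Tshz1 (0.92, adjusted p = 0.223). Foxp2 (-0.21, adjusted p = 0.781) and Pbx3 (0.01, adjusted p = 0.986) were not called beside Six3. Of 15 striatal projection neuron genes tested beside Six3, 6 were higher and 1 lower, where 120 and 100 of 6670 genes were. Penk, the enkephalin precursor gene of striatopallidal neurons, was higher (1.20) and the substance P gene Tac1 lower (-1.27). Other genes of the list were mixed. Adora2a had 10 UMIs with Six3 and 0 without, Gpr6 42 and 17, and Pdyn 85 and 97. The dopamine receptor gene Drd2 had 1 UMI on each side, and Drd1 had 63 UMIs with Six3 and 47 without.

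Cells were also paired within 1 subtype gate, within the 998 cells of no gate, or within the 240 cells of several gates. The cells of no gate or of several may mix subtypes, so this pairing does not compare cells of like subtype throughout. Calls then numbered 17 of 44. Foxp2 with Tshz1 (2.48, adjusted p = 2.64e-06), Pbx3 with Foxp2 (1.84, adjusted p = 9.21e-06), Meis2 with Six3 (1.74, adjusted p = 4.26e-07) and Meis2 with Bcl11b (1.51, adjusted p = 1.55e-09) passed as before. Foxp1 did not pass beside Meis2 (0.28, adjusted p = 0.442) or Six3 (0.40, adjusted p = 0.433), nor Bcl11b beside Foxp1 (0.44, adjusted p = 0.109). The link of Pbx3 and Tshz1 did not pass in either split (1.24, adjusted p = 0.0678 for Tshz1 beside Pbx3, and 1.00, adjusted p = 0.449 for Pbx3 beside Tshz1). Ebf1 beside Meis2 (0.26, adjusted p = 0.809) and Six3 beside Bcl11b (0.38, adjusted p = 0.168) did not pass, and with Foxp1 beside Pbx3, given above, 8 calls were lost. Foxp1 still passed beside Bcl11b (0.58, adjusted p = 0.0291).

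**Figure D4:**
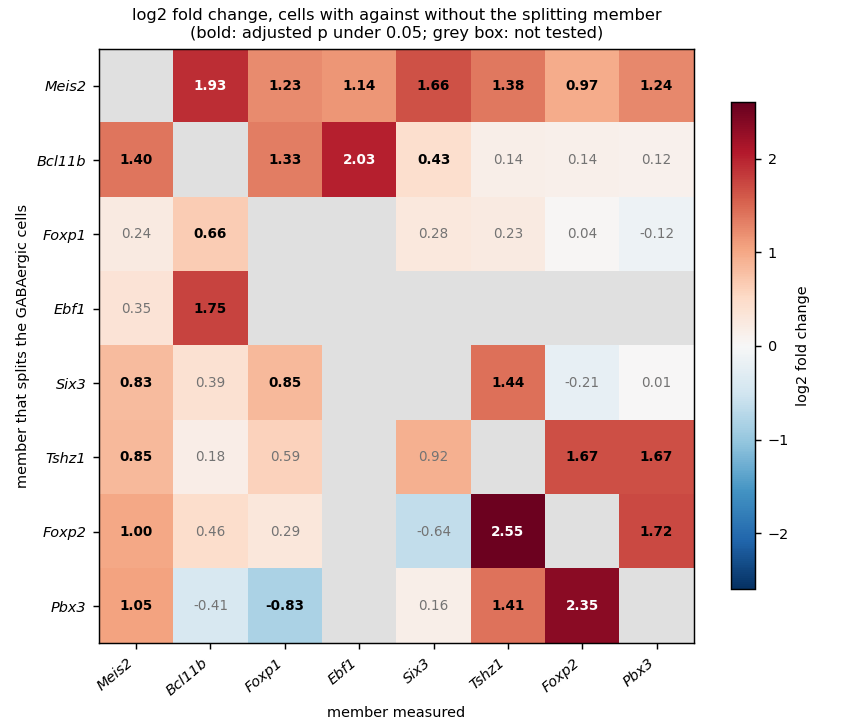
Log2 fold change of each measured member (columns) between depth-paired GABAergic cells with and without the splitting member (rows), as fitted by edgeR over 3 or 4 libraries; bold values passed an adjusted p of 0.05 and grey boxes were not tested. Foxp2, Tshz1 and Pbx3 form a block of high values at the lower right, Bcl11b is high beside Meis2 (1.93) and Ebf1 (1.75), and Foxp1 is low beside Pbx3 (-0.83).

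Other genes followed the members over the 9 subtype gates, compared by the correlation of mean log2(CPM + 1), as a description over 9 gates of the same libraries among 7249 genes. The closest to Foxp1 were Wasl (r = 0.92), Arpp21 (0.92) and Marcks (0.92), and to Meis2 Dnmt3a (0.92), Man1a2 (0.92) and Acvr2a (0.90). Bcl11b was closest to Rnf167 (0.93), Syt6 (0.88) and Arhgap26 (0.88), and Six3 to Lrrtm1 (0.94), Tra2a (0.89) and Setd2 (0.88). Foxp2 was closest to Srgap3 (0.98), Zc3h12c (0.97) and Rpa1 (0.97), and Tshz1 to Man2a2 (0.97), Foxo1 (0.96) and Phactr3 (0.96). For Pbx3 they were 5830418K08Rik (0.90), Ptprz1 (0.89) and Slc20a1 (0.88), for Ebf1 H2afv (0.93), Dtnbp1 (0.90) and Scaf8 (0.88), and for Meis1 Ubash3b (0.94), Atg5 (0.94) and Pgm2l1 (0.93). With 9 points and so many genes, values this high are to be read as a ranking only.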

How the data were processed

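Drop-seq counts transcripts of single cells by UMI. The authors deposited, per the file headers, a table of raw UMI counts per gene and cell barcode for each library. Per the submitters' processing notes, bcl2fastq 2.18.0.12, STAR 2.4.2a, Picard 2.2.4 and mm10 were used. Annotation and counting strand were not given in the sources used here. From these counts, barcodes with at least 400 genes and at most 10% mitochondrial UMIs were kept. Scrublet (scanpy 1.11.5, expected rate 0.05) then removed 58 of 4239 as doublets, and 4181 cells of 10200 barcodes remained.

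A cell entered a class or subtype when it had at least 2 UMIs of the markers of exactly 1 gate. Counts were summed per library and gate where there were at least 10 cells, and compared where at least 3 libraries had sums. The test was edgeR 4.0.16 (quasi-likelihood, TMM, filterByExpr, library as a block) in R 4.3.3, with Benjamini-Hochberg adjustment over all genes and a threshold of 0.05. The block was part of the design because both sums come from the same pool. The Prkcd and Lhx8 sums entered the subtype fit for its spread only. Splits paired each cell having a UMI with the nearest cell without, within 10% of its total UMIs. Shares were compared at 1000 UMIs, and members per cell at 1500. Intervals (95%, exact) and limits (3 counts over the group) cover counting error only. Bases before and after a start numbered 250 and 50.

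Members and lists were chosen with earlier results of these data known. Other listed genes were named by rule, at most 4 per list and comparison, the largest changes past the threshold with 1 direction in every library. Some genes that this rule names are not reported here. The 3 most alike genes had a mean of at least 20 CPM. Alternatives were DESeq2 1.42.0, its size factors, no filter, no block, each library left out, other cell and gate filters, thinning and other pairing. On simulated data with 200 genes changed 2-fold, 46.5% were recovered for GABAergic cells against astrocytes (4667 genes), 63.5% for the Ppp1r1b/Crym gate (4495 genes) and 83% for the Foxp1 split (6384 genes).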

Additional observations from a re-analysis of the deposited data

How the results depend on the processing

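The 3 counts of called pairs were each recomputed under the alternatives that apply to them. Across cell classes, 20 of 28 pairs were called. Leaving out 1 library gave 10 to 19, the lowest without library 1 with 16 pairs tested. With at most 5% mitochondrial UMIs 7 of 8 tested pairs were called, and with cells thinned to 1000 UMIs 4 of 4. All 4 classes were fitted in these 3 settings, but fewer members passed the low-count filter. Across subtypes, 21 of 56 pairs were called. Leaving out 1 library gave 15 to 19, at most 5% mitochondrial UMIs 13 of 35, and thinning 7 of 28. Against the summed cells of the other subtypes, chosen after seeing the data, 28 of 49 were called, and Bcl11b in the Sst/Npy gate reversed to -0.011. Across splits, 26 of 46 pairs were called. Leaving out 1 library gave 22 to 26, DESeq2 17, and pairing within a subtype gate 17 of 44. Without the replicate block, 14 of the split pairs were called, 18 of the class pairs and 18 of the subtype pairs. Of the single named values, 17 of 67 lost their call without the block, 17 of 65 with DESeq2, 4 of 67 with its size factors and 0 of 67 without the low-count filter. Low depth limits Meis1 and Ebf1 most, with 58 and 206 UMIs in all GABAergic cells.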
